A study of Mus musculus with 4 samples.

Results

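The BAF (SWI/SNF) chromatin remodeling complex was examined through 10 of its subunit genes, *Arid1a*, *Arid1b*, *Smarca2*, *Smarca4*, *Smarcc1*, *Smarcc2*, *Smarcb1*, *Smarcd1*, *Smarcd3* and *Actl6b*. They were taken by symbol from count tables that hold 23420 gene symbols, and all 10 passed the filter on low counts. The RNA came from the prefrontal cortex (PFC) of C57BL6/J mice aged 6 to 8 weeks, as the description of the series states. In 2 samples the mice had received AAV9 carrying GFP (control), and in the other 2 AAV9 carrying an shRNA against *Ash1L*, a histone methyltransferase gene (*Ash1L* shRNA). The study's methods call the control virus a scrambled shRNA AAV, place the shRNA behind a U6 promoter, which is not restricted to one cell type, and state that punches containing GFP fluorescence from 3 mice were pooled into each sample. The description of the series instead names 3 *Ash1L* shRNA mice and 2 control mice, so how far the samples are separate animals is not settled. No other genotype or agent is named for either group.

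BAF complexes use the energy of ATP to slide or eject nucleosomes and so open DNA to transcription factors. Each complex holds a single ATPase, either SMARCA4 (BRG1) or SMARCA2 (BRM), on a scaffold of SMARCC1 and SMARCC2, and the subunits that are added to this core define its assemblies. Canonical BAF holds ARID1A or ARID1B and a DPF protein, PBAF holds ARID2, PBRM1, BRD7 and PHF10, and non-canonical BAF holds BRD9 with GLTSCR1 or GLTSCR1L. When neural progenitors leave the cell cycle, ACTL6A, PHF10 and SS18 are replaced by ACTL6B, DPF1 or DPF3 and SS18L1, which gives the neuronal form of the complex. Mutations in *ARID1B* and other subunit genes cause Coffin-Siris syndrome, with intellectual disability.

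The knockdown was checked first. *Ash1l* had 245 and 290.1 CPM (counts relative to each library's total, adjusted by TMM) in control samples 1 and 2 and 215.6 and 137.5 CPM in the *Ash1L* shRNA samples numbered 1 and 2. Its log2 fold change was -0.60 (standard error 0.22, adjusted p = 0.275 in edgeR's quasi-likelihood test). Sample 1 kept more of the transcript than sample 2, and without sample 2 the value was -0.31. The gene was DOWN by the study's rule (an unadjusted P under 0.05 and at least a 1.2-fold change), a call that needed both controls and *Ash1L* shRNA sample 2. Total counts ran from 14251190 to 35764874 per sample. Of the cell type markers, all 8 of excitatory neurons and 7 of the 10 pan-neuronal ones were lower in *Ash1L* shRNA samples. The pan-neuronal markers summed to 6140 to 6202 TPM (counts scaled by exonic length and library) in the controls and 5049 to 5398 in *Ash1L* shRNA samples. The 8 astrocyte markers, 5 of them lower, summed to 3069 to 3141 and 1737 to 2308 TPM, and the 6 lymphocyte markers, all lower, to 12.5 to 22.5 and 1.69 to 2.81 TPM. The 7 microglia markers summed to 1483 to 1533 TPM in the controls, 2006 TPM in *Ash1L* shRNA sample 1 and 797 TPM in sample 2. The medians of the interneuron, oligodendrocyte and tested monocyte markers were -0.31, -0.26 and -2.56 on the log2 scale, and that of endothelial markers was 0.06. The striatal neuron and oligodendrocyte precursor lists had higher medians. Of the 4 striatal neuron markers counted, 3 were above both controls and 2 were UP (median log2 fold change 0.76). The other 1 was below both controls and DOWN. Their sums were 38.7 to 51.8 TPM in the controls and 41.1 to 62.8 TPM in *Ash1L* shRNA samples. Of the 3 oligodendrocyte precursor markers, 2 were above both controls and 1 was UP (median 0.27). Over all genes tested, 26.5% were above both controls, 8.61% UP and 8.28% DOWN. DOWN were 4 excitatory neuron, 2 pan-neuronal, 3 interneuron, 5 astrocyte, 1 oligodendrocyte, 5 lymphocyte and 2 monocyte markers, and 0 of microglia, endothelium or oligodendrocyte precursors. The oligodendrocyte precursor markers were also summed. Their sums were 108.2 and 102.8 TPM in the controls and 139.3 and 85.6 TPM in *Ash1L* shRNA samples 1 and 2. Over all genes, *Ash1L* shRNA sample 2 stood further from the controls (median absolute log2 deviation 0.316) than sample 1 (0.192). In bulk tissue, fewer cells of a type and less RNA per cell cannot be told apart, and the part of these markers in the results was not tested.

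All 10 BAF subunit genes had a fold change below 0 in *Ash1L* shRNA against control PFC, as 50.3% of the 16232 genes tested had. For each of the 10, the higher *Ash1L* shRNA sample was under the lower control in CPM, a position held by 26.8% of all genes. Of the 10, 5 were DOWN, *Arid1a*, *Arid1b*, *Smarca4*, *Smarcd1* and *Smarcd3*. DOWN genes made up 8.28% of all genes tested. None of the 10 was UP, against 8.61% of all genes. The median log2 fold change of the 10 was -0.285 (range -0.56 to -0.08), and that of all genes tested was -0.003. With adjustment over all genes, 0 of the 10 stayed under 0.05 in edgeR's quasi-likelihood test (adjusted p 0.253 to 0.75), where 5 had an unadjusted P under that limit. Genes that were lower at that adjusted limit made up 0.00616% of all genes, a single gene. The likelihood ratio test of edgeR and DESeq2 likewise put 0 of the 10 under it, while over all genes they put 158 and 164 lower and 321 and 256 higher there. The number of members DOWN was 2 to 6 in the other fits with all samples, which put 915 to 1736 of all genes DOWN. With control sample 1 or control sample 2 left out, which leaves a single control, only *Smarcd1* was still DOWN. With library-size scaling, which shifted the median of all genes to 0.039, the groups no longer separated for *Smarcc1*, *Smarcc2* and *Smarcb1*. With the GC content or the gene length offset they no longer did for *Smarcc2*, which left 9 of 10.

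**Figure D1:**
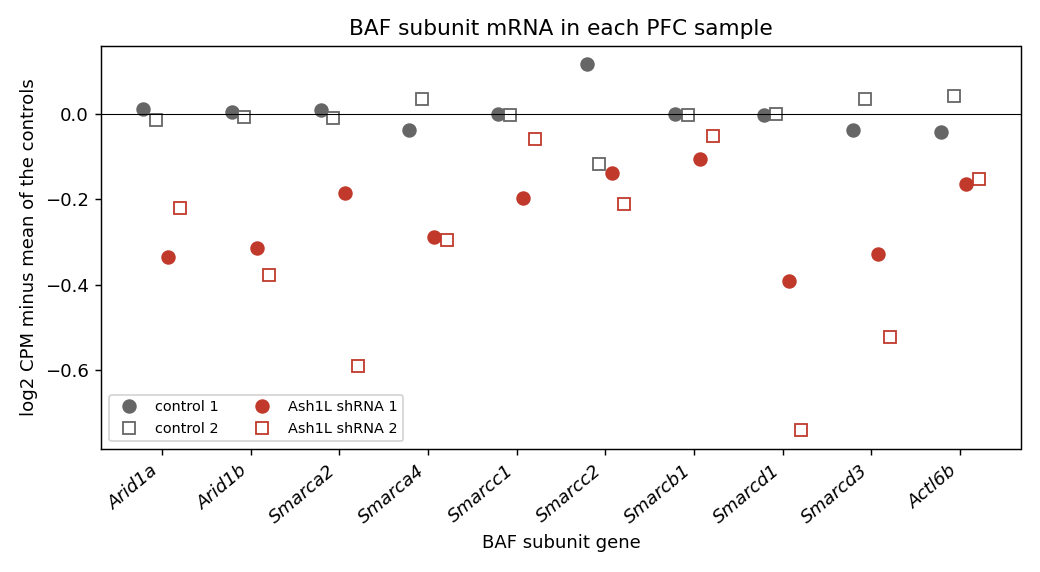
The log2 CPM of each of the 10 BAF subunit genes is plotted per sample, relative to the mean of the 2 control samples (grey: control; red: *Ash1L* shRNA; filled: sample 1; open: sample 2). Each red symbol lies below both grey symbols of its gene, with the largest distances from the control mean for *Smarcd1* and *Smarca2* in *Ash1L* shRNA sample 2 and the smallest for *Smarcb1*.

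The promoters of the members were read from RefSeq (GRCm38.p6), as the 250 bases before the RefSeq start nearest to the start in GENCODE vM21, and all 10 matched. For *Smarcd3*, *Smarcc1* and *Arid1b* the RefSeq start lay 22409, 14316 and 742 bases downstream of the GENCODE one. Their windows therefore lie inside the gene as GENCODE draws it, and each is counted in the shares given below. For *Smarcd1* and *Smarca2* the distance was 158 and 110 bases. Those of 3 members are shown, for a DOWN ATPase, for the member with the smallest difference and for the neuronal subunit, each 5′ to 3′ on the strand of the gene. Capitals mark matches to the GC box (GGGCGG) and to the CCAAT box (CCAAT) on either strand.
*Smarca4* (chr9:21615919-21616168, plus strand): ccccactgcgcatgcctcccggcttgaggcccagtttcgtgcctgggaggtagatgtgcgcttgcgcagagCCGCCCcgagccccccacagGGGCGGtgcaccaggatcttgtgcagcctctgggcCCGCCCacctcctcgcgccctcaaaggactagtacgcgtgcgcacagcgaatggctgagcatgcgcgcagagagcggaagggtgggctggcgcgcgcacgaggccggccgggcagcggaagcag
*Smarcb1* (chr10:75921615-75921864, minus strand): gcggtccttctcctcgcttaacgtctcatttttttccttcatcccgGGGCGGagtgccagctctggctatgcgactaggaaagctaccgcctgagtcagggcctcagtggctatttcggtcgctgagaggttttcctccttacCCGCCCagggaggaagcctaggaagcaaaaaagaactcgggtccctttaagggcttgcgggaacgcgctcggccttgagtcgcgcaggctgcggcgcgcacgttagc
*Actl6b* (chr5:137553296-137553545, plus strand): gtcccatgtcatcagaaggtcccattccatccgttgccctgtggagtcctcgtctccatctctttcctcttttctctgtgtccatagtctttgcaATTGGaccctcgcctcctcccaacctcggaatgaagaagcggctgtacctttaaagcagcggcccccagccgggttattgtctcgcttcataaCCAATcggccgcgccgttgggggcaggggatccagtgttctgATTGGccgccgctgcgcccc

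*Smarca4*, which was DOWN, held 3 GC boxes, and *Smarcb1*, which was not, held 2. *Actl6b* held none but 3 CCAAT boxes. Whether the number of matches goes with the calls was not tested. Of the 10 members, 8 held a GC box, compared with 33.0% of 27018 promoter windows of the same length. A CCAAT box was in 1 of the 10, against 34.5% of all windows. A TATA box (TATAAA) was in none of the 10 and in 13% of all windows. An ETS core (CCGGAA) was in 4 of the 10, against 12.3% of all windows. The set of all windows is not limited to genes that passed the filter on low counts, as the 10 members did. Shares among such genes were not computed. The windows of the members were 58.0% to 80.8% G or C, where the median of all windows was 52.0%. Their ratio of observed to expected CpG dinucleotides ran from 0.735 to 1.06, with a median of 0.379 over all windows. These matches describe letters only, and no binding was measured in this series.

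Of the ATPases, *Smarca4* (ENSMUSG00000032187, mm10 chromosome 9 from 21616169 to 21704230) had 186.1 and 195.6 CPM in the controls and 156.3 and 155.4 CPM under *Ash1L* shRNA. The *Ash1L* shRNA samples were nearly equal and the groups did not overlap. The log2 fold change was -0.29 (standard error 0.11, adjusted p = 0.268), a fall of 18.4%. The DOWN call was kept in 6 of the 13 other fits with all samples and in 1 of the 4 with a sample left out. *Smarca2* (ENSMUSG00000024921, chromosome 19 from 26605050 to 26778322), whose product is the alternative ATPase, had 363.1 and 358.4 CPM in the controls and 317.3 and 239.4 CPM under *Ash1L* shRNA. The controls lay close together, while *Ash1L* shRNA sample 2 was well below sample 1. Its log2 fold change of -0.37 (standard error 0.16) was larger than that of *Smarca4*, but the spread between the *Ash1L* shRNA samples was larger too and the gene was not called (adjusted p = 0.298, 95% interval -0.75 to 0.003). Without *Ash1L* shRNA sample 1 it was DOWN at -0.60, and without sample 2 its value was -0.18. It was also DOWN with DESeq2.

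The ARID subunits bind DNA and distinguish canonical BAF from PBAF. *Arid1b* (ENSMUSG00000069729, chromosome 17 from 4994332 to 5347656) had 122.3 and 121.3 CPM in the controls and 98.0 and 93.8 CPM under *Ash1L* shRNA. The distance between the groups was 19.1% of the control mean. Its log2 fold change was -0.345 (standard error 0.11, adjusted p = 0.26). *Arid1a* (ENSMUSG00000007880, chromosome 4 from 133679008 to 133756769) had 88.0 and 86.4 CPM in the controls and 69.2 and 74.8 CPM under *Ash1L* shRNA. Here sample 1 was the lower of the *Ash1L* shRNA samples, although it kept more *Ash1l*. The log2 fold change was -0.28 (standard error 0.11, adjusted p = 0.285), and this call was lost in 9 of the 13 other fits with all samples. *Arid2*, the ARID subunit of PBAF, had 62.1 and 59.0 CPM in the controls and 58.1 and 65.1 CPM under *Ash1L* shRNA. Its groups overlapped and the 95% interval of its log2 fold change ran from -0.26 to 0.31.

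The BAF60 subunits, which connect the complex to transcription factors, included the largest fall of the 10 members. *Smarcd1* (ENSMUSG00000023018, BAF60A, chromosome 15 from 99702129 to 99713991) had 85.3 and 85.4 CPM in the controls and 65.0 and 51.0 CPM under *Ash1L* shRNA. The controls were almost identical, and *Ash1L* shRNA sample 2 was lower than sample 1. The log2 fold change was -0.56 (standard error 0.14, adjusted p = 0.253), a fall of 32%. It was DOWN in each of the 17 alternative fits, with values from -0.75 to -0.39. *Smarcd3* (ENSMUSG00000028949, BAF60C, chromosome 5 from 24590818 to 24624411) had 61.1 and 64.3 CPM in the controls and 50.0 and 43.6 CPM under *Ash1L* shRNA. The groups were separated by 17.8% of the control mean, with a change of -0.42 on the log2 scale (standard error 0.12, adjusted p = 0.26). Its exons share 2466 bases with *Chpf2* on the opposite strand, and the strand setting of the counting is not given in the sources used here. *Chpf2* had a log2 fold change of 0.10 and was not called. *Smarcd2*, the remaining BAF60 gene, had 16.5 and 18.1 CPM in the controls and 15.3 and 14.6 CPM under *Ash1L* shRNA (log2 fold change -0.21, 95% interval -0.58 to 0.16).

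The scaffold and core subunits had smaller differences. *Smarcc2* (ENSMUSG00000025369, BAF170, chromosome 10 from 128459248 to 128490482) had 306.8 and 260.6 CPM in the controls and 257.1 and 244.5 CPM under *Ash1L* shRNA. The higher *Ash1L* shRNA sample lay only 1.24% of the control mean below the lower control. Its log2 fold change was -0.18 (standard error 0.13, adjusted p = 0.492), and without control sample 1 it was -0.045. *Smarcc1* (ENSMUSG00000032481, BAF155, chromosome 9 from 110117708 to 110240178) had 91.0 and 90.9 CPM in the controls and 79.3 and 87.3 CPM under *Ash1L* shRNA. Its log2 fold change was -0.13 (standard error 0.11, adjusted p = 0.579). It shares 123 exonic bases with *Dhx30* on the opposite strand, whose log2 fold change was -0.33. *Smarcb1* (ENSMUSG00000000902, which anchors the complex to the nucleosome, chromosome 10 from 75896769 to 75921617) had the smallest difference. It had 48.8 and 48.7 CPM in the controls and 45.4 and 47.0 CPM under *Ash1L* shRNA (log2 fold change -0.08, standard error 0.11, adjusted p = 0.75, 95% interval -0.35 to 0.20). A fall of *Smarcd1* size lies outside that interval.

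*Actl6b* (ENSMUSG00000029712, BAF53B, chromosome 5 from 137553517 to 137569582), the actin-related subunit found in neurons, had 45.5 and 48.2 CPM in the controls and 41.8 and 42.2 CPM under *Ash1L* shRNA. The groups were separated by 7.07% of the control mean, with a change of -0.16 on the log2 scale (standard error 0.12, adjusted p = 0.502, 95% interval -0.44 to 0.12). The median over the 10 pan-neuronal markers was -0.22 on the log2 scale, and their part in the value of *Actl6b* was not tested.

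**Figure D2:**
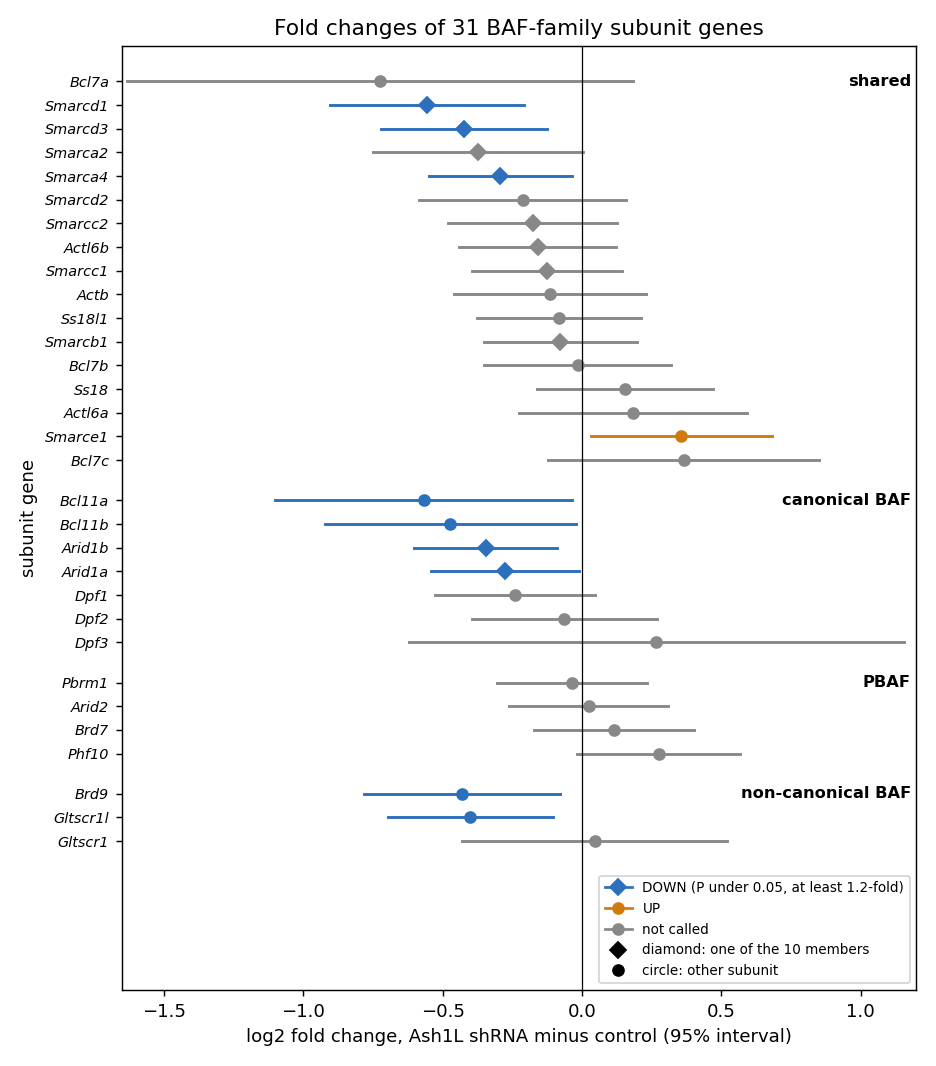
The log2 fold change (*Ash1L* shRNA minus control) of 31 BAF-family subunit genes is drawn with its 95% interval from edgeR's quasi-likelihood fit, by the assembly that holds the product ("shared" for more than one). Blue marks DOWN, orange UP and grey no call, and diamonds are the 10 members. DOWN genes are among the shared, canonical and non-canonical subunits, and the 4 PBAF genes lie between -0.03 and 0.28.

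The other 21 genes of the BAF family did not share the single direction of the 10 members. Of these, 12 were lower and 9 higher, with a median log2 fold change of -0.03. In 7 the *Ash1L* shRNA pair was wholly below the controls, and in 6 above them. Of all genes tested, 26.8% and 26.5% held these positions. Of the 21, 4 were DOWN and 1 was UP, against 8.28% and 8.61% of all genes. Without control sample 1 none of the 4 was DOWN, and without *Ash1L* shRNA sample 2 only *Gltscr1l* was. Of the 4, *Brd9* and *Gltscr1l* belong to non-canonical BAF. *Brd9*, a bromodomain subunit, had 98.3 and 79.4 CPM in the controls and 70.1 and 61.5 CPM under *Ash1L* shRNA (log2 fold change -0.43, standard error 0.15, adjusted p = 0.262), and -0.26 without control sample 1. *Gltscr1l* (*Bicral*), which replaces *Gltscr1* in that assembly, had 69.6 and 62.7 CPM in the controls and 52.6 and 47.5 CPM under *Ash1L* shRNA (log2 fold change -0.40, standard error 0.12, adjusted p = 0.26). *Gltscr1* itself had 7.93 to 8.78 CPM in the 4 samples, and its groups overlapped.

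The zinc finger genes *Bcl11a* (Ctip1) and *Bcl11b* (Ctip2), which copurify with BAF and also specify cortical projection neurons, were DOWN as well. *Bcl11a* had 55.6 and 42.7 CPM in the controls and 39.1 and 26.9 CPM under *Ash1L* shRNA (log2 fold change -0.57, standard error 0.22, adjusted p = 0.281). *Bcl11b* had 67.9 and 71.6 CPM in the controls and 59.6 and 41.0 CPM under *Ash1L* shRNA (log2 fold change -0.47, standard error 0.19, adjusted p = 0.285). In both, *Ash1L* shRNA sample 2 was the lowest of the 4 samples. Without it the values were -0.32 for *Bcl11a* and -0.23 for *Bcl11b*, and without *Ash1L* shRNA sample 1 they were -0.87 and -0.77. Without control sample 1, *Bcl11a* was at -0.36. *Bcl7a* had the lowest fold change of the 21, at -0.725 (standard error 0.36, adjusted p = 0.359), but its 26.7 CPM in *Ash1L* shRNA sample 2 stood far from the 55.3 CPM in sample 1, and it was not called in this fit. It was DOWN with DESeq2 and, at -1.36, without *Ash1L* shRNA sample 1, and it was -0.30 without sample 2. The median over the 8 excitatory neuron markers was -0.40 on the log2 scale, and their part in these values was not tested.

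*Smarce1* (BAF57), a DNA-binding subunit of BAF and PBAF, was the gene called UP. It had 53.2 and 44.0 CPM in the controls and 63.3 and 61.0 CPM under *Ash1L* shRNA (log2 fold change 0.36, standard error 0.13, adjusted p = 0.272). The call was lost with DESeq2 and without control sample 2 (0.22) or *Ash1L* shRNA sample 1. *Bcl7c* was the upper end of the range at 0.365 (standard error 0.20, adjusted p = 0.388). Adjusted p-values of the 21 genes ran from 0.26 to 0.969 (edgeR's quasi-likelihood test), so none passed that limit.

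By assembly, the 4 genes that belong to PBAF alone, *Arid2*, *Pbrm1*, *Brd7* and *Phf10*, had log2 fold changes from -0.03 to 0.28 with none called by edgeR's quasi-likelihood test after TMM. *Phf10* was UP with upper-quartile scaling, library-size scaling and the gene length offset. Of the 7 genes of canonical BAF, 6 were lower and 4 were DOWN, where 50.3% of all genes were lower and 8.28% DOWN. The 3 genes of non-canonical BAF included 2 DOWN. With control sample 1 left out, none of these 6 DOWN genes was called. Of the 17 genes whose products enter more than one assembly, 13 were lower, 3 were DOWN and 1 was UP. The difference between assemblies was not tested.

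**Figure D3:**
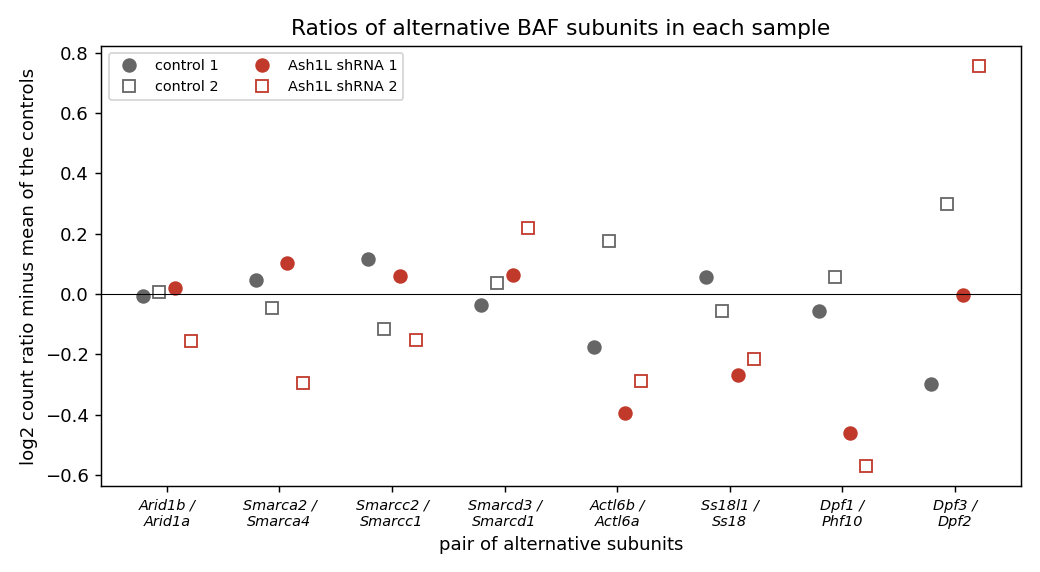
The log2 ratio of counts of 8 pairs of alternative subunits is plotted per sample relative to the mean of the controls (grey: control; red: *Ash1L* shRNA; filled: sample 1; open: sample 2). Both red symbols lie below both grey ones for *Actl6b* to *Actl6a*, *Ss18l1* to *Ss18* and *Dpf1* to *Phf10*, and above them for *Smarcd3* to *Smarcd1*.

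Ratios of alternative subunits were compared within each sample, since they need no scaling between samples. The ratio of *Smarca2* to *Smarca4*, with log2 values of 0.96 and 0.87 in the controls and 1.02 and 0.62 in *Ash1L* shRNA samples, overlapped between the groups. So did *Arid1b* to *Arid1a* and *Smarcc2* to *Smarcc1*, with differences of -0.07 and -0.05. Of the 4 pairs that mark the neuronal form, 3 separated the groups. The share of all gene pairs that do so was not computed. Of single genes, 26.8% lay below both controls and 26.5% above them. The log2 ratio of *Dpf1* to *Phf10* was 0.52 and 0.63 in the controls and 0.11 and 0.002 in *Ash1L* shRNA samples, a difference of -0.52. That of *Actl6b* to *Actl6a* was 1.5 and 1.85 in the controls and 1.28 and 1.39 in *Ash1L* shRNA samples, a difference of -0.34. The difference was -0.16 without control sample 2 and -0.52 without control sample 1. The ratio of *Ss18l1* to *Ss18* was 1.25 and 1.14 in the controls and 0.92 and 0.98 in *Ash1L* shRNA samples, a difference of -0.24. In these pairs the numerator is the neuronal subunit and the denominator the subunit of progenitors and other cells. Both *Ash1L* shRNA samples lay below both controls in each ratio. The denominators *Actl6a*, *Ss18* and *Phf10* were themselves above both controls, with log2 fold changes of 0.18, 0.155 and 0.28. *Ss18l1* overlapped between the groups (-0.08), so the ratios do not give a fall of the neuronal subunit alone. The ratio of *Smarcd3* to *Smarcd1* was -0.48 and -0.41 in the controls and -0.38 and -0.23 in *Ash1L* shRNA samples, higher in both. That difference of 0.14 was 0.06 without *Ash1L* shRNA sample 2 and 0.22 without sample 1. *Dpf3* to *Dpf2*, the remaining pair that marks the neuronal form, had a difference in the other direction (0.38). Its groups overlapped, with only 31 to 120 counts of *Dpf3* per sample. The exact two-sided permutation p was 0.333 for each pair whose groups did not overlap, which is the smallest that 2 samples against 2 can give, and 0.667 after adjustment over the 8 pairs. *Phf10* shares 470 exonic bases with *1600012H06Rik* and *Actl6a* 452 with *Mrpl47* on opposite strands. These neighbours had log2 fold changes of 0.44 and 0.11, and their part in the ratios was not tested.

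**Figure D4:**
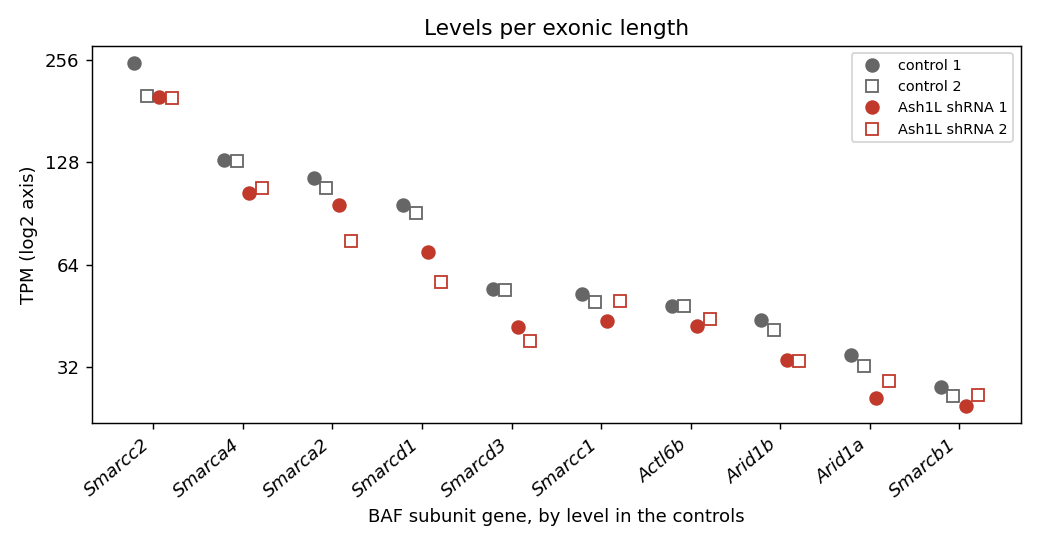
Levels of the 10 subunit genes per exonic length are plotted as TPM on a log2 axis for each sample (grey: control; red: *Ash1L* shRNA; filled: sample 1; open: sample 2), ordered by the mean of the controls. *Smarcc2* is the highest at 201 to 251 TPM in the controls and *Smarcb1* the lowest at 26.3 to 27.9 TPM.

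Levels of different subunits were compared per exonic length, in TPM. In the controls, the mean level was 226 TPM for *Smarcc2*, 130 TPM for *Smarca4*, 111 TPM for *Smarca2* and 93.4 TPM for *Smarcd1*. Then came *Smarcd3* with 53.9, *Smarcc1* with 51.2, *Actl6b* with 48.3, *Arid1b* with 42.6, *Arid1a* with 33.5 and *Smarcb1* with 27.1 TPM. No neighbours in this order overlapped between the 2 control samples. The order of the ATPases depended on the length used, because *Smarca2* has 14269 exonic bases in all but a longest transcript of 5921 bases. By the longest transcript, *Smarca2* had 204 TPM and *Smarca4* 100.2 TPM, while the other members kept their places. The neuronal *Actl6b*, at 48.3 and 48.4 TPM in the controls, was above *Actl6a* at 18.8 and 14.7 TPM. TPM values carry no TMM scaling, and on this scale the groups of *Smarcc1* and *Smarcb1* overlapped.

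As a comparison, 17 ATPases of the other remodeler families (ISWI, CHD, INO80 and relatives) were listed, of which 16 were tested and *Srcap* was not analysed here. Of the 16, 9 were lower and 7 higher, around a median of -0.04 on the log2 scale. Of these, 2 NuRD-type genes were DOWN and 0 were UP, against 8.28% and 8.61% of all genes. Without control sample 2 neither was DOWN, and without control sample 1 *Chd3* was not. *Chd5*, which is restricted to neurons in brain, had 385.1 and 395.6 CPM in the controls and 301.2 and 255.8 CPM under *Ash1L* shRNA (log2 fold change -0.49, standard error 0.13, adjusted p = 0.253). *Chd3* had 641.8 and 708.6 CPM in the controls and 526.5 and 347.0 CPM under *Ash1L* shRNA (log2 fold change -0.63, standard error 0.21, adjusted p = 0.26). Its value was -0.36 without *Ash1L* shRNA sample 2 and -0.97 without sample 1. *Chd4*, their widely expressed paralog, overlapped between the groups at 282.5 to 283.8 CPM in the controls and 262.9 to 283.6 CPM under *Ash1L* shRNA. *Smarca5*, an ISWI ATPase, lay higher in both *Ash1L* shRNA samples (log2 fold change 0.26, standard error 0.12, adjusted p = 0.315) and was not called. *Smarca5* was UP with upper-quartile scaling, library-size scaling and the gene length offset. *Smarca1*, the other ISWI ATPase, overlapped, at 108.5 and 101.8 CPM in the controls and 108.4 and 94.6 CPM under *Ash1L* shRNA (log2 fold change -0.05). *Chd1* was the upper end of the 16 at 0.28 (standard error 0.17, adjusted p = 0.429), and its groups overlapped.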

How the data were processed

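PFC RNA was sequenced as stranded total RNA libraries after removal of ribosomal RNA. By the study's methods, the authors mapped the read pairs on mm10 using RNA STAR and summarised them by gene symbol using featureCounts. The deposited tables hold raw counts. The labels instead describe Cutadapt and TopHat2. The strand and multiple-mapping settings are not given in the sources used here, so overlapping genes may share reads. The members' counts carry a counting error of at most 3.95%, which covers counting only. Genes were filtered with filterByExpr, normalized with TMM and tested with the quasi-likelihood F test of edgeR 4.0.16 (R 4.3.3) with Benjamini-Hochberg adjustment over 16232 genes. Standard errors are the fold change divided by the root of F. DESeq2 1.42.0, the study's tool, was an alternative (5 members and 5 other subunits DOWN), beside edgeR's likelihood ratio test, other scalings and filters, the replicate block, GC content and gene length offsets, and each sample left out in turn. Exonic lengths came from GENCODE vM21 (GRCm38, the assembly of mm10), with 98.4% of symbols matched. Nothing in the labels ties the samples to separate animals, so P-values measure the spread between these samples.

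The members, the lists of other subunits, ATPases and markers, and the tests were chosen with earlier results of these data known. Named genes are all members and *Ash1l*, and of the other lists those called, those of a pair of alternative subunits and the ends of the range. *Smarcd2*, *Chd4*, *Smarca5*, *Smarca1* and the genes named for an assembly were chosen after their values were seen, as was the grouping by assembly. Equal replicate numbers did not pair the samples (correlation -0.11 across genes).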

Additional observations from a re-analysis of the deposited data

How the results depend on the processing

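With 2 samples per group, the direction of the 10 members was the same in every alternative run, while calls moved. The number of members DOWN, 5 as reported, was 3 with edgeR's likelihood ratio test, with library-size scaling, with the replicate block and with the gene length offset. It was 2 with the block and either offset. Over all genes, 1268, 1144, 1020 and 1205 were DOWN with that test, library-size scaling, the block and the length offset. With the block, the GC content and length offsets gave 915 and 1034 DOWN over all genes, against 1344 as reported. The number of members DOWN also moved when samples were left out, which leaves a single sample in a group. *Smarcd1* was DOWN in all of these. No member passed an adjusted p of 0.05 in a fit with all samples. Without *Ash1L* shRNA sample 1, which leaves a single sample in that group, *Smarca2*, *Smarcd1* and *Smarcd3* were at -0.60, -0.75 and -0.53. The median of the members was -0.27 with upper-quartile and -0.24 with library-size scaling, -0.21 with the GC content offset, alone or with the block, -0.25 with the length offset, alone or with the block, and -0.295 to -0.24 with a sample left out. *Ash1l* lost its call with the length offset (-0.55), also with the block (-0.59), and ran from -0.97 to -0.31 with a sample left out. Of the other subunits, 2 were DOWN with the length offset. The number UP was 0 with DESeq2 and with the block and GC offset, where 1243 and 1133 of all genes were UP. It was 2 with upper-quartile and library-size scaling and the length offset, where 1514, 1635 and 1502 of all genes were UP. Both numbers also moved with a sample left out. Of the other ATPases, 1 was UP with upper-quartile and library-size scaling, the length offset and the crossed block. Their numbers DOWN and UP also moved with a sample left out. The pairs whose groups did not overlap numbered 4 to 8 with a sample left out, the 8 without *Ash1L* shRNA sample 1, since fewer samples separate more readily. A block with crossed numbers, added after the data were examined, gave 6 members DOWN. The block and the crossed block found 1020 and 1736 genes DOWN and 1052 and 1541 UP, against 1344 and 1397 as reported. Control sample 1 has the fewest counts.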

Other observations

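The 10 BAF subunit genes differed little between the control samples. For 8 of the 10, the gap between control samples 1 and 2 was within 1.96 times its counting error, a limit that 53.2% of 11165 genes with at least 100 counts in every sample met. The gap was 0.0885% of the mean for *Smarcc1* and 0.0997% for *Smarcd1*. The counting error of the sample with the fewest counts of the gene was 2.79% for *Smarcc1* (control sample 1). For *Smarcd1* it was 3.08% (*Ash1L* shRNA sample 2). The exceptions were *Smarca4* with 4.98% and *Smarcc2* with 16.3%. Between the *Ash1L* shRNA samples, 4 of the 10 met the same limit, against 38.6% of those 11165 genes. The largest gaps there were 28.0% for *Smarca2* and 24.2% for *Smarcd1*, both lower in sample 2. That sample also deviated more from the controls over all genes, by a median of 0.316 on the log2 scale against 0.192 in sample 1. For *Arid1b*, *Smarcb1*, *Smarca4* and *Actl6b*, the *Ash1L* shRNA samples lay within that limit of each other. Whether any value depends on the *Ash1l* level was not tested.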
